A study of Homo sapiens with 4 samples.

Results

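The small nuclear RNA (snRNA) genes RNU4-1, RNU4-2, RNU5A-1, RNU5B-1, RNU2-1, RNU11, RNU12, RNU4ATAC, RNU6ATAC and RNU7-1 were examined for peaks in HA ChIP-seq of K562 cells. They are 10 of the 58998 genes of the RefSeq gene table of GRCh38.p14 that lie on assembled chromosomes, and they were taken by name from a given list. A gene was counted as having a peak when a peak overlapped it by at least 1 bp or lay within 500 bp of it. K562 is a human line from a chronic myeloid leukemia. It was untreated and overexpressed either PHF6 carrying an HA tag (HA-PHF6) or, in the control cells, the HA tag. PHF6 is a chromatin-associated protein with PHD-like zinc fingers that is mutated in T-cell acute lymphoblastic leukemia. Cross-linked chromatin sheared to 100 to 400 bp was recovered with an antibody to HA, and each of the 2 ChIP libraries has an input library of its own, which enters through the peak calls. The titles name the libraries only as HA and WT, and which one held HA-PHF6 is unclear from them, since HA can mean the tag alone and WT wild-type PHF6. They are therefore called the library labelled HA and the library labelled WT. With 1 library per label there was no replicate, no difference between them could be set against a spread between replicates, and no test was made. The antibody recovers tagged protein and not the PHF6 of the cells themselves, and a peak list holds no RNA levels, so neither the cell line nor the amount of tagged protein could be checked against markers.

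The snRNAs are short RNAs of the nucleus that never become protein. U1, U2, U4, U5 and U6 are the RNA cores of the major spliceosome, which removes nearly all introns, and U11, U12, U4atac and U6atac take the corresponding places in the minor spliceosome, which removes the rare U12-type introns. U7 does not splice: it guides the cutting of histone pre-mRNA at its end. RNA polymerase II transcribes most of these genes and RNA polymerase III transcribes those of U6 and U6atac. Both polymerases use a proximal sequence element, bound by the snRNA activating protein complex, and a distal element that often contains an octamer bound by OCT1. The Integrator complex then cuts the new transcript of the polymerase II genes. Many snRNA genes are repeated in the genome and have numerous pseudogenes.

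Most calls of both lists were weak, which sets the scale for the values at the snRNA genes. After filtering, 16132466 ChIP tags were used for the label HA and 22257947 for the label WT. The lists hold 12662 and 6874 peaks, with a median pileup (extended ChIP tags at the summit) of 5 and 8 tags and a median fold enrichment over the local input background of 2.93 and 2.84. The adjusted p-value (q) was 1 for 64.0% and 58.0% of the peaks. At the genome-wide background of 1.05 and 1.68 tags, 4 and 6 tags were enough for a peak at the cutoff of p 0.005.

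Sequence at or beside the genes is shown for RNU7-1 and RNU4-2, from the RefSeq promoter windows of genes that overlap or adjoin them on GRCh38.p14. None of the 10 genes has a window of its own, and the bases under the peak at RNU4-1 are not shown. The whole RNU7-1 gene (chr12:6943816-6943878, 63 bases) lies inside the window of C12orf57, a protein-coding gene whose span covers it. RNU7-1 is shown because it is the shortest gene of the group, and it is given 5′ to 3′ on the + strand, that of the window. The capitals mark the start of the site where the Sm and Lsm ring of U7 assembles. The letters AATTTGT occur on either strand in 3.04% of the 35116 windows of 300 bases.
RNU7-1: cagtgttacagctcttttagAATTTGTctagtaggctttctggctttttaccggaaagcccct
The window of SIRT4, a mitochondrial sirtuin gene whose span covers RNU4-1 and overlaps RNU4-2, starts 36 bp above the higher end of RNU4-2 and lies between RNU4-2 and RNU4-1 (chr12:120291939-120292238, + strand). It is shown because it adjoins RNU4-2 on the side of the called peak, which lies above the window. The capitals mark the octamer ATTTGCAT on the opposite strand, 222 bp from RNU4-2.
SIRT4 window beside RNU4-2: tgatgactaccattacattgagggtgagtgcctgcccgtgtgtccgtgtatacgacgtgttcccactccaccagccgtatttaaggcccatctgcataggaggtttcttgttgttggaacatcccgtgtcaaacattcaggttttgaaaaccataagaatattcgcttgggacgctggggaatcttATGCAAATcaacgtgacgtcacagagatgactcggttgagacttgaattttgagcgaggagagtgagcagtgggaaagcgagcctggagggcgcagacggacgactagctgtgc
The octamer occurs in 1.77% of all windows. Letters for the proximal sequence element (ACC, any base, T, any 6 bases and AAA, on either strand) occur in 2.73% of all windows and in neither of these. They are also absent from the POLDIP3 window, whose nearer edge lies 111 bp below RNU12, and the octamer was not found there either. RNU7-1 begins at base 45 of its window, so the bases farther below it were not searched, nor were those between RNU12 and the POLDIP3 window. The elements of these genes could lie outside the windows, so the absence of letters says nothing about them. TATA letters lie 29 and 30 bp below RNU7-1, where TTATAT and, on the opposite strand, TATAAA overlap. TATAAA occurs in 11.5% and TTATAT in 8.26% of all windows. A match is a description of letters and not of binding.

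Peaks were rare at these snRNA genes in both libraries. In the library labelled HA, 0 of the 10 genes had a peak (95% Wilson confidence interval 0% to 27.8%), and in the library labelled WT 1 of 10 did (10.0%, 1.79% to 40.4%). The gene with the peak was RNU4-1. With 0 genes labelled HA, none could have a peak in both lists. Among all 58998 genes, 10.4% had a peak labelled HA by the same rule and 4.8% a peak labelled WT. Most of these genes are far longer than an snRNA gene, and the 6894 genes no longer than RNU2-1, the longest of the group at 188 bp, are closer in size. Of them, 5.15% had a peak labelled HA and 0.493% a peak labelled WT. Of the 355 genes behind the share labelled HA, 286 were transfer RNA (tRNA) genes, of which 63.4% had a peak labelled HA and 2.66% a peak labelled WT. Without tRNA genes the background was 1.07% labelled HA and 0.341% labelled WT. At the shares of the short genes, 10 genes would hold less than 1 peak, so 0 labelled HA is no departure from the background, and the 1 labelled WT is a single call. The intervals cover counting error only.

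The U4 genes carried the peak closest to any of the 10 genes, and as called it lay at the edge of RNU4-1, not over it. RNU4-1 (chr12:120293093-120293237) and RNU4-2 (chr12:120291759-120291903) each encode a U4 snRNA of 145 bases, which holds U6 in pairing until the spliceosome is activated, and 1189 bases separate them. The peak labelled WT ran from 120292832 to 120293093, a length of 262 bp, and shared 1 bp with RNU4-1, which is 0.690% of the gene. Its summit at 120293006 was 87 bp below the lower end of RNU4-1 and 1103 bp above RNU4-2. The gene table gives no strand, so the end of RNU4-1 at which the peak lay is named here only by coordinate. Only uniquely mapped reads were used in the peak calls. Whether this removed tags from the U4 genes and so set the place of the peak was not tested.

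At that summit 14 tags piled up (exact Poisson 95% interval 7.65 to 23.5), or 0.629 per 1000000 ChIP tags (0.344 to 1.06), over a local background of 5.44 tags. The enrichment was 2.33-fold, with a −log10 p of 3.27, and the q was 1. The pileup was high for the list and the enrichment was low. The peak stood above 90.0% of the peaks labelled WT in pileup, above 9.24% in fold enrichment and above 44.9% in −log10 p. The background was 3.24 times the genome-wide one and above that at 91.7% of the peaks, and at this background 12 tags were needed for a call. The peak therefore rests on 2 tags more than the minimum.

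The library labelled HA had no peak at either U4 gene, and its nearest one lay 311520 bp from RNU4-1 and 312854 bp from RNU4-2, with 6 tags and 2.91-fold enrichment. At equal enrichment, 8.72 tags over a background of 3.38 tags would have been expected there, and 9 tags would have been needed. Equal enrichment in the library labelled HA was thus at the edge of detection at this depth, since tag counts vary around an expected value. The missing call therefore does not tell equal from lower enrichment. RNU4-2 lay 929 bp from the peak labelled WT and was outside the limit of 500 bp.

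**Figure D1:**
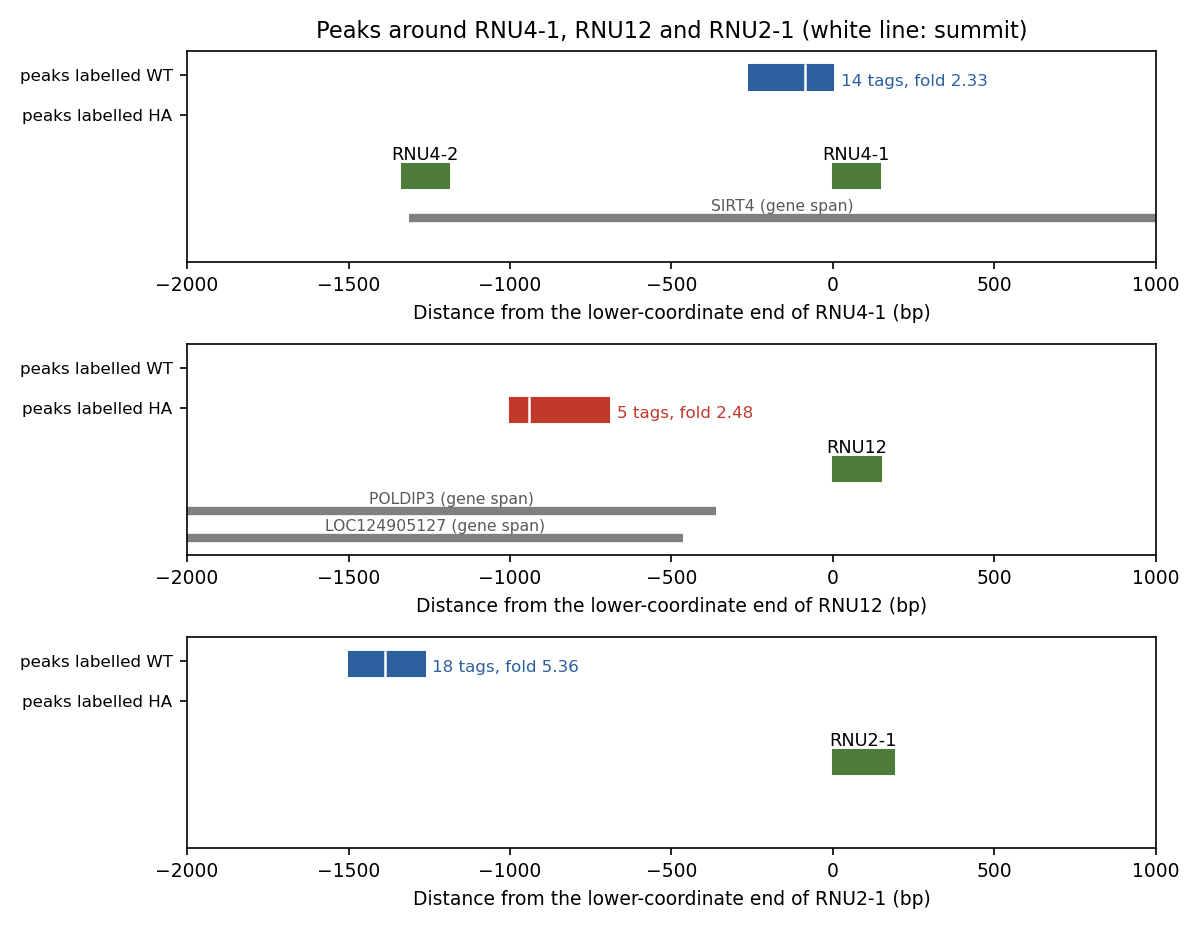
Each panel maps the peaks (bars, with a white line at the summit) and genes (boxes for snRNA genes, lines for the other gene spans) around RNU4-1, RNU12 and RNU2-1 by distance from the lower end of the gene in bp. The peak labelled WT reaches RNU4-1 by 1 bp, the peak labelled HA ends 694 bp short of RNU12 and the peak labelled WT ends 1265 bp short of RNU2-1.

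RNU5A-1 (chr15:65296051-65296167) and RNU5B-1 (chr15:65304677-65304793) encode variants of U5, which aligns the exons for joining. Both genes are 117 bp long, overlap no other gene and lie 8509 bases apart. Neither had a peak nearby in either library, and they shared the same nearest peaks. In the library labelled HA this peak was in DPP8, 211408 bp from RNU5A-1 and 202782 bp from RNU5B-1, with 6 tags, 3.42-fold enrichment and a −log10 q at 0.106. In the library labelled WT it was 213165 bp and 221791 bp away, with 6 tags and 2.41-fold enrichment.

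RNU2-1 (chr17:43233790-43233977) encodes U2, which pairs with the branch point of the intron. It is the outermost of a run of annotated snRNA genes of like length, with 13 further ones of 189 to 192 bp between 43239921 and 43368087, and the run spans 134 kb in all. A strong peak labelled WT lay 1265 bp below RNU2-1, from 43232292 to 43232525, at a place with no annotated gene. Its 18 tags stood over a background of 2.54, a 5.36-fold enrichment with −log10 values of 10.4 for p and 5.43 for q. It was among the strongest peaks of its list, above 99.4% of them in fold enrichment and 97.8% in −log10 q, and 7 tags would have sufficed. At the same enrichment 11.2 tags over 1.58 would have been expected in the library labelled HA, where 6 were needed, and no peak was called there. The 1.58 is scaled from the library labelled WT, since the lists hold no background labelled HA at this place. The nearest peak labelled HA to RNU2-1 was 240069 bp away, with 5 tags and 2.56-fold enrichment. Of the 13 further genes of the run, 0 had a peak labelled HA and 1 had a peak labelled WT. Reads that map to more than one place were not used in the peak calls, and how many tags this removed from these repeated genes was not tested.

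Of the genes of the minor spliceosome, RNU11, RNU12, RNU4ATAC and RNU6ATAC, 0 of 4 had a peak in either library. RNU12 (chr22:42615244-42615393), which encodes the counterpart of U2, came closest. The nearest peak labelled HA ran from 42614244 to 42614550 and ended 694 bp below the gene, over POLDIP3 and LOC124905127. It was among the weakest calls, with 5 tags where 5 were needed, over a background of 1.42. Its enrichment was 2.48-fold, its −log10 p 2.47 and its −log10 q 0. At this enrichment 8.03 tags over 2.27 would have been expected in the library labelled WT, with 7 needed. Tag counts vary around an expected value, so the missing call does not tell equal from lower enrichment. The nearest peak labelled WT was 699797 bp away. That was the farthest nearest peak of the group.

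RNU11 (chr1:28648600-28648734), the counterpart of U1, lies in the noncoding gene TAF12-DT. The nearest peak labelled HA was in GMEB1, 61967 bp away, with 7 tags and 3.41-fold enrichment. The nearest peak labelled WT was 140555 bp away, over SNHG3, RCC1 and SNORA73A, with 11 tags and 2.60-fold enrichment. RNU4ATAC (chr2:121530880-121531009), the counterpart of U4, lies in CLASP1 and CLASP1-AS1. Its nearest peaks were 164081 bp away labelled HA, with 6 tags and 2.75-fold enrichment, and 321242 bp away labelled WT, with 8 tags and 3.36-fold enrichment. RNU6ATAC (chr9:134164439-134164564) is the only gene of the group that RNA polymerase III transcribes, and it lies in the noncoding gene LOC124902297. A peak labelled HA in WDR5 was 9604 bp away, with 5 tags and 2.51-fold enrichment, and the nearest peak labelled WT, in SARDH, was 444766 bp away, with 10 tags and 4.10-fold enrichment. RNU6ATAC had no peak labelled HA. Of the tRNA genes, which polymerase III also transcribes, 63.4% had one, a share against which a single gene cannot be weighed.

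RNU7-1, the U7 gene printed above, had no peak in either library. The nearest peak labelled HA was in LPCAT3, 59464 bp away, with 5 tags and 2.93-fold enrichment. The nearest peak labelled WT was in ACRBP, 304864 bp away, with 8 tags and 3.36-fold enrichment. Over the 10 genes, the median distance to the nearest peak was 183 kb labelled HA and 217 kb labelled WT. It was over 50 kb for 8 of the 10 genes labelled HA and for 7 of 10 labelled WT. The q was 1 for the nearest peak of 7 genes labelled HA and of 5 genes labelled WT.

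The lists hold no value where no peak was called, so the tags at the genes without one are known only by an upper limit, which holds for enriched stretches at least as long as the tag extension. At a background of 2 tags fewer than 6 tags lay there, at 5 tags fewer than 12 and at 10 tags fewer than 19, and the background at these places is not in the lists. The shortest peak is as long as the extension, 201 bp labelled HA and 234 bp labelled WT, and so longer than any of the genes, which span 63 to 188 bp. A peak over a whole snRNA gene thus always takes in its flanks as well. Within 1000 bp, RNU12 was added in the library labelled HA, and RNU4-2, by the same peak as RNU4-1, in the library labelled WT. That made 1 of 10 and 2 of 10, beside 5.67% and 0.899% of genes of up to 188 bp.

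Peaks were also counted at the other snRNA genes. Of the 139 further genes annotated as snRNA, 2 (1.44%, 0.395% to 5.09%) had a peak labelled HA, at RNVU1-26 and RN7SK. In the library labelled WT 5 (3.60%, 1.55% to 8.14%) did, at RNVU1-19, LOC124904613, RNU2-2, LOC124904142 and RN7SK. RN7SK encodes 7SK, which restrains a transcription elongation factor and is no part of the spliceosome. Without it the counts were 1 of 138 (0.725%, 0.128% to 3.99%) and 4 of 138 (2.90%, 1.13% to 7.22%). The intervals of the 2 libraries overlap. Among genes of up to 188 bp, a background that includes many of these snRNA genes, 5.15% had a peak labelled HA, or 1.07% without tRNA genes, and the share of other snRNA genes labelled HA lay near the latter. In the library labelled WT the background was 0.493% (0.353% to 0.688%), or 0.341% (0.226% to 0.516%) without tRNA genes, and the share of other snRNA genes lay above it, with or without RN7SK, by intervals that do not overlap. This rests on 5 genes, of which RN7SK alone had a q under 0.05, and it is no test. Of them RN7SK (332 bp), RNU2-2 (191 bp) and LOC124904142 (191 bp) are longer than 188 bp and so outside that background. The intervals treat the genes as independent, although many snRNA genes are repeated copies.

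RNU2-2, a U2 gene within WDR74, had a peak close to that at RNU4-1 in pileup and enrichment. It ran from 62841239 to 62841708 on chromosome 11 in the library labelled WT and covered 47.1% of the gene, with its summit 32 bp below it. There were 18 tags over a background of 6.78 tags, 2.44-fold enrichment and a −log10 q at 0.220. The peak at LOC124904142, in the run of genes beside RNU2-1, was 195 bp from the gene and had 16 tags over 5.44, 2.64-fold enrichment and a −log10 q at 0.278. All 3 of these peaks, at RNU4-1, RNU2-2 and LOC124904142, combined a pileup of 14 to 18 tags with a background 3.24 to 4.04 times the genome-wide one, and their fold enrichments of 2.33 to 2.64 were below the median of the list, 2.84.

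The remaining peaks, at the U1 variants RNVU1-26 and RNVU1-19 and at LOC124904613, had fewer tags. RNVU1-26 had 7 tags over 2.09 labelled HA, with 2.59-fold enrichment, and RNVU1-19 had 9 tags over 2.97 labelled WT, with 2.52-fold enrichment, both with a −log10 q at 0. LOC124904613 had 9 tags over 2.54 labelled WT, 2.82-fold enrichment and a −log10 q at 0.0202. Among RNU1-1, RNU1-2, RNU1-3, RNU1-4, RNVU1-7, RNVU1-18, RNU5D-1, RNU5E-1, RNU5F-1, RNU6-1, RNU6-2, RNU6-7, RNU6-8 and RNU6-9, the U1, U5 and U6 genes of a given list, 0 of 14 had a peak in either library. The interval of that share is 0% to 21.5%. Among genes of up to 188 bp without tRNA genes, 1.07% had a peak labelled HA and 0.341% a peak labelled WT, so 0 of 14 is no departure from the background. Copies of U1 are near-identical and only uniquely mapped reads were used, so a call at one of them is uncertain, and so is a missing call.

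**Figure D2:**
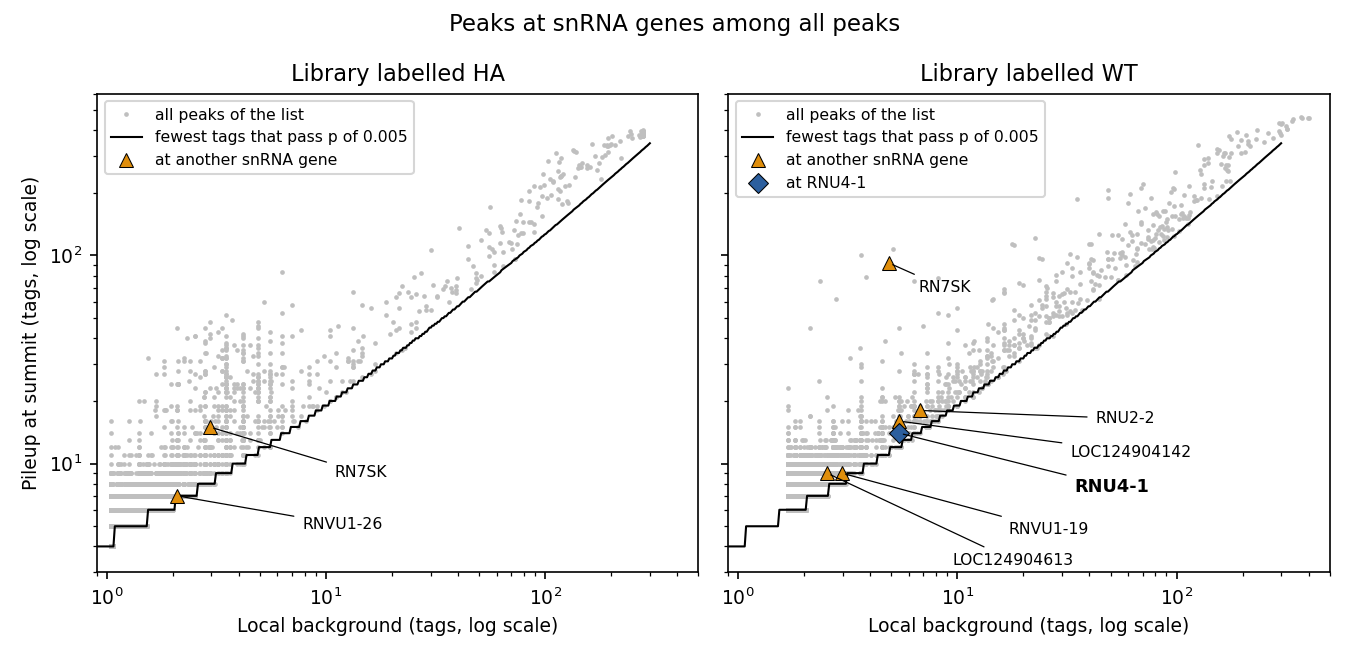
Pileup at the summit is plotted against local background (both in tags, log axes) for all peaks (dots) of each library, with triangles at other snRNA genes, a diamond at RNU4-1 and a black line at the fewest tags that pass p of 0.005. RNU4-1 (14 tags over 5.44) lies 2 tags above the minimum of 12, beside RNU2-2 and LOC124904142, while RN7SK labelled WT (92 tags) lies far above the line.

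Some genes share the snRNA type of promoter but make other RNAs. Of SNORD3A, SNORD3B-1, SNORD3B-2, SNORD3C, SNORD3D, SNORD118, SNORD13, TERC, RN7SK, RMRP and RPPH1, 2 of 11 (18.2%, 95% Wilson confidence interval 5.14% to 47.7%) had a peak labelled HA, RN7SK and RMRP, and 3 of 11 (27.3%, 9.75% to 56.6%) a peak labelled WT, these and RPPH1. Their median length is 217 bp, and the shares of genes of up to 188 bp were 5.15% and 0.493% and those of all genes 10.4% and 4.8%. The interval labelled HA, on 2 genes, includes both of its backgrounds, that of the short genes only just. It lies above the share of short genes without tRNA genes, 1.07%. The interval labelled WT, on 3 genes, lies above both of its backgrounds and above the 0.341% of short genes without tRNA genes. The list was chosen with earlier results of these data known, so these shares are a description and cannot show that such genes are enriched. RN7SK had 15 tags and 4.06-fold enrichment labelled HA and 92 tags and 15.8-fold labelled WT, a ratio of WT over HA, scaled to ChIP tags, of 4.45 (95% counting interval 2.56 to 8.26). RMRP, the RNA of RNase MRP, had 16 tags and 3.79-fold enrichment labelled HA and 34 tags and 5.37-fold labelled WT, a ratio of 1.54 (0.827 to 2.99) whose interval includes 1. RPPH1, the RNA of RNase P, had 39 tags and 7.06-fold enrichment labelled WT. The summits of these 5 peaks lay inside the genes, while that of the peak at RNU4-1 lay 87 bp outside it. Whether the use of uniquely mapped reads alone affects these places was not tested. These values compare 2 libraries and not the conditions.

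The genes of the proteins that make and assemble snRNAs are long, so that their counts have to be read against those of protein-coding genes, of which 19.0% had a peak labelled HA and 8.82% a peak labelled WT. Of the snRNA activating protein complex, 1 of 5 genes had a peak labelled HA and 0 of 5 a peak labelled WT. The gene was SNAPC4, whose product is the largest subunit of the complex, with 9 tags over 1.12, 4.71-fold enrichment and a −log10 q at 2.03. Of the 15 Integrator genes, INTS1, INTS2, INTS4, INTS7 and INTS14 had a peak labelled HA, each with 5 tags, an enrichment of 2.47- to 2.93-fold and a −log10 q at 0. In the library labelled WT, INTS3 had 6 tags and 2.42-fold enrichment and INTS15 had 8 tags and 3.20-fold. Of the 9 genes of the Sm and U7 Lsm proteins, which form the ring around the snRNAs, SNRPE alone had a peak labelled HA, with 5 tags and 2.93-fold enrichment, and 0 of 9 had a peak labelled WT. Of the 10 genes of the SMN complex, which loads that ring, 0 had a peak in either library, and among them SMN1 and SMN2 are near-identical copies. SNAPC4 was thus the 1 gene of these 4 lists with a q under 0.05.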

How the data were processed

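HA ChIP-seq of K562 cells comprised 2 ChIP libraries and 2 inputs. Per the submitters' processing notes BWA 0.7.12 and MACS2 2.1.0 were used, and the file headers name MACS 2.1.0.20150420. Per the file headers, the authors called peaks for each ChIP library against its own input on uniquely mapped reads without duplicates, at p 0.005, with tags extended to 201 bp (HA) or 234 bp (WT) and without pooling. For each peak the authors deposited the pileup as a signal in tags, the fold enrichment as a ratio to the local background with 1 added to both, the −log10 p-value and q-value, and the length in bp. The headers say that q-values would not be calculated, but values were present and were used as given. The genome build is not given in the sources used here, and the chromosome names match the RefSeq gene table of GRCh38.p14, which gives no strand or exons. The 794 genes on scaffolds were left out.

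Local background was computed from pileup and fold enrichment, and the p recomputed from it lay within 0.05 of the deposited −log10 p for 100% of the peaks. Genes were matched to peaks by overlap of at least 1 bp or a distance of up to 500 bp. Shares have 95% Wilson intervals and pileups exact Poisson intervals. Tags expected in the other library, and the background under them, were scaled by tags times extension, since the lists hold no background where no peak was called. Named were the 10 genes, other snRNA genes with a peak or in a given list, genes overlapping a counted peak, and given lists of related genes, while genes at the nearest peaks and pseudogenes were named after their values were seen. The 10 genes and the lists were chosen with earlier results of these data known. Alternatives were other distances, stricter thresholds, merging and other scalings. The matching was tested on simulated data. Software was matplotlib 3.10.9, scipy 1.17.1, numpy 2.4.6 and pandas 2.3.3 in Python 3.11.15.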

Additional observations from a re-analysis of the deposited data

How the results depend on the processing

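No gene had a peak in both lists under any setting, which was fixed in advance wherever 0 genes were labelled HA. The 1 gene labelled WT with a peak, RNU4-1, stayed the only one when overlap with the gene was required, when peaks were merged and when the summit had to lie within 500 bp. It was lost under every stricter threshold, with 0 of 10 at −log10 q from 5 upwards, at q under 0.05 and at an enrichment of at least 5-fold, where its own q of 1 and fold enrichment of 2.33 leave it out, and no median fold enrichment could then be given. Within 1000 bp the counts of the 10 genes were 1 labelled HA and 2 labelled WT. Within 2000 bp, a distance chosen after seeing the data, they were 1 and 3, with RNU2-1 added, and the median fold enrichment labelled WT was 3.85. The other snRNA genes fell from 2 labelled HA to 0, 1 and 0 and from 5 labelled WT to 1, 1 and 1 under the same 3 thresholds in that order, and there were 4 labelled HA within 2000 bp. At RNU4-1 the pileup was 8.33 when given as a multiple of the genome-wide background in place of per 1000000 ChIP tags, a change of unit. The assembled chromosomes alone were already used, so that setting was not run separately. No median fold enrichment labelled HA exists without a peak. No paired analysis was possible because each label has 1 ChIP library. Depth limits the result: peaks of 4 to 8 tags rest on few reads, and weaker enrichment at any of the 10 genes was not detectable.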

Other observations

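The pseudogenes of the snRNAs, which far outnumber the genes, were looked at after the other values were seen. Of 1817 snRNA pseudogenes, 14 (0.771%, 95% Wilson interval 0.460% to 1.29%) had a peak labelled HA within 500 bp and 1 (0.055%) a peak labelled WT. Among genes of up to 188 bp without tRNA genes the shares were 1.07% and 0.341%. The pseudogenes labelled HA thus lay near the background and those labelled WT below it. Of the 14, 11 were U6 pseudogenes, a class that holds 1277 of the 1817. Their peaks had 4 to 11 tags and an enrichment of 2.44- to 5.09-fold, and 2 of them overlapped the pseudogene. RNU6-1276P had the 1 peak with a q under 0.05, with 11 tags, 5.09-fold enrichment and a −log10 q at 3.04, at a distance of 492 bp.

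Pseudogenes of the families described above were among the 14. RNU4-24P had a peak labelled HA at 382 bp with 6 tags and 2.77-fold enrichment, RNU6ATAC7P at 405 bp with 6 tags and 2.88-fold enrichment, and RNU2-22P one that covered 56.6% of it, with 5 tags and 2.93-fold enrichment. The peak nearest to RNU6-971P, 356 bp from it, was the same one that was nearest to RNU2-1 in the library labelled HA. The peak labelled WT was at RNVU1-21, a U1 pseudogene, at 191 bp, with 10 tags and 2.98-fold enrichment.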
